A study of Mus musculus with 6 samples.

Results

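The core genes of epithelial-mesenchymal transition (EMT) were followed in 6 mouse breast tumors. They were chosen by name and not by a threshold on their values, but with earlier results of these data known. The 10 genes are the cadherins *Cdh1*, *Cdh2* and *Cdh3*, the intermediate filament gene *Vim*, and the transcription factors *Snai1*, *Snai2*, *Zeb1*, *Zeb2*, *Twist1* and *Prrx1*. All 10 were among the 18460 genes listed in at least 1 tumor, and all 10 passed the filter on low counts together with 13706 genes in total. The lowest expected count of any of the 10 genes in a tumor was 23, for *Twist1* in control tumor 2, above the floor of 3 counts used here as the detection limit.

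The 3 tumors labeled TEST came from K14-TSLPtg;PyMTtg;Rag1KO mice and the 3 labeled CONTROL from PyMTtg;Rag1KO mice, all of the Balb/c strain. Both groups carried the polyoma middle T oncogene under the MMTV promoter, which acts mainly in mammary epithelium, and both lacked *Rag1* and so had no T or B cells of their own. Both received CD4+ T cells at 4 wk of age, and tumors were taken at week 18 to 20. The transferred cells were naive and had been sorted from donor spleens. The groups differed in the K14-TSLPtg transgene, which drives thymic stromal lymphopoietin, an epithelial cytokine, from a keratin promoter in keratinocytes. Every tumor came from a different mouse, so p-values measure the spread between animals. The comparison of these groups was made to learn what CD4+ T cells under TSLP do to the transcriptome of advanced breast tumors.

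Some properties of the whole data set bear on all results that follow. The library totals ran from 8373390 to 9449565 expected counts. In the sentences that follow, values for a group are always in the order of its tumors 1, 2 and 3, numbered by the replicate in the labels. Counts of *Tslp* were 2, 2 and 3 in the control and 12, 7 and 2 in the test tumors, and the tumor RNA did not separate the groups by the transgene, which acts in keratinocytes. Control tumor 2 was closer to the test tumors than to its own group. Across genes, which are not independent replicates, Pearson's r of log2(CPM + 0.5), where CPM is the count scaled to library size with edgeR's TMM factors, between this tumor and the 3 test tumors was 0.921, 0.927 and 0.935, but 0.874 and 0.908 between it and control tumors 1 and 3. Control tumors 1 and 3 had an r of 0.949 with each other, and the pairs of test tumors had 0.887, 0.909 and 0.921, so that an r of 0.908 was within the range of the test group. The results of the core EMT genes are therefore given with and without this tumor, and those of the lists of partners and program genes by their medians. The lists of cell type markers are given with all tumors. The 6 samples are bulk tissue, in which fewer cells of a type and less RNA per cell cannot be told apart.

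EMT is the program by which epithelial cells loosen their junctions and take on properties of mesenchymal cells, in the embryo, in wound repair and in carcinomas. E-cadherin holds epithelial cells together through catenins, and its gene is repressed by zinc finger factors of the SNAIL and ZEB families, which bind E-box letters in DNA, while the helix-loop-helix factor TWIST1 and the homeobox factor PRRX1 also drive the program. Loss of E-cadherin with gain of N-cadherin and vimentin is its usual readout, and in breast carcinoma the program is known to be partial and to differ between cells of the same tumor.

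Promoter windows, the 250 bases before an annotated transcript start on the GRCm38.p6 reference from RefSeq, were available for *Vim*, *Snai1*, *Zeb2*, *Twist1* and *Prrx1*, that is 5 of the 10 genes, in 8 windows. The windows of *Snai1*, *Vim*, *Twist1* and *Prrx1* are shown because *Vim* was the most abundant of these 5 transcripts and the other 3 had the largest fold changes among them, and because SNAIL and ZEB factors are known to bind E-boxes. They lie at chr2:167537945-167538194 (+ strand), chr2:13574061-13574310 (+), chr12:33957421-33957670 (+) and chr1:163313651-163313900 (-), 5′ to 3′, with the E-box of the letters CACCTG or CAGGTG in capitals.
Snai1: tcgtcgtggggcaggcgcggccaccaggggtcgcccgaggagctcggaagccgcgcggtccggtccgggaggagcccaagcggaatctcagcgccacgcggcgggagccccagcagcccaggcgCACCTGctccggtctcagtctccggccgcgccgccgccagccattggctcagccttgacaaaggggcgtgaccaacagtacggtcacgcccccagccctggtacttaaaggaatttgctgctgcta
Vim: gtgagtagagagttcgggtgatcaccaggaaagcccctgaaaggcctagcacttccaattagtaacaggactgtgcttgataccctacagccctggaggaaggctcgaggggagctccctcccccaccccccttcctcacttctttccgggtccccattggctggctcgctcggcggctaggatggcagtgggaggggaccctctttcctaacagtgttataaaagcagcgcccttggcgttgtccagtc
Twist1: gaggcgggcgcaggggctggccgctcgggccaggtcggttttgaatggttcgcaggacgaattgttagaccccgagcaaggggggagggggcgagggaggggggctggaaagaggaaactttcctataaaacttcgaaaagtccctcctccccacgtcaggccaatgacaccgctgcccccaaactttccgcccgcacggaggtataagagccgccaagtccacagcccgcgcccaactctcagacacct
Prrx1: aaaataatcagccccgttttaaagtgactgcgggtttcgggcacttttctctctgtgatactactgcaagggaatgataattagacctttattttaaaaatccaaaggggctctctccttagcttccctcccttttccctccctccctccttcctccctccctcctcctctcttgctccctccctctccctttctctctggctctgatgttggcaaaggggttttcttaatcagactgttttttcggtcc
The *Snai1* window held CACCTG once, its first letter 126 bases before the start, and the other 7 windows held neither CACCTG nor CAGGTG. Searched on both strands, these letters were found in 17.2% of 32851 windows of the same length over all genes, leaving out no chromosome. The looser E-box CANNTG, which includes the former, was likewise found in the *Snai1* window alone among the windows examined, against 66.2% of all windows. A match of letters is a description and not a binding site.

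No core EMT gene passed the test between the groups, but 9 of the 10 were lower in the test tumors on average and 1, *Cdh1*, was higher. The median log2 fold change of the 10 genes (test minus control) was -1.66, against 0.018 over all tested genes, of which 48.5% were below 0. The quasi-likelihood test of edgeR, adjusted by Benjamini-Hochberg, called 0 of the 10 genes at an adjusted p of 0.05 or less and 0.00% of all tested genes, and the adjusted p of the 10 ran from 0.454 to 0.841. An unadjusted p under 0.05 was reached by 7 of the 10, all lower in test tumors, where 5.26% of all tested genes were lower at that level, 3.15% were higher and 8.41% were either. A log2 fold change of -1 or less was found for 8 of the 10 genes and for 7.27% of all tested genes. The 10 genes vary together across the tumors and are not 10 separate observations, and they were chosen with earlier results of these data known. The wide spread lay in the control group: for 8 of the 10 genes, all but *Cdh1* and *Snai2*, control tumors 1 and 3 both exceeded every test tumor and control tumor 2 did not, an arrangement seen for 13.0% of all tested genes. As a result the 3 test and 3 control values did not separate completely for any of the 10 genes (0 of 10, against 12.0% of all tested genes, 5.86% with the test tumors lower).

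**Figure D1:**
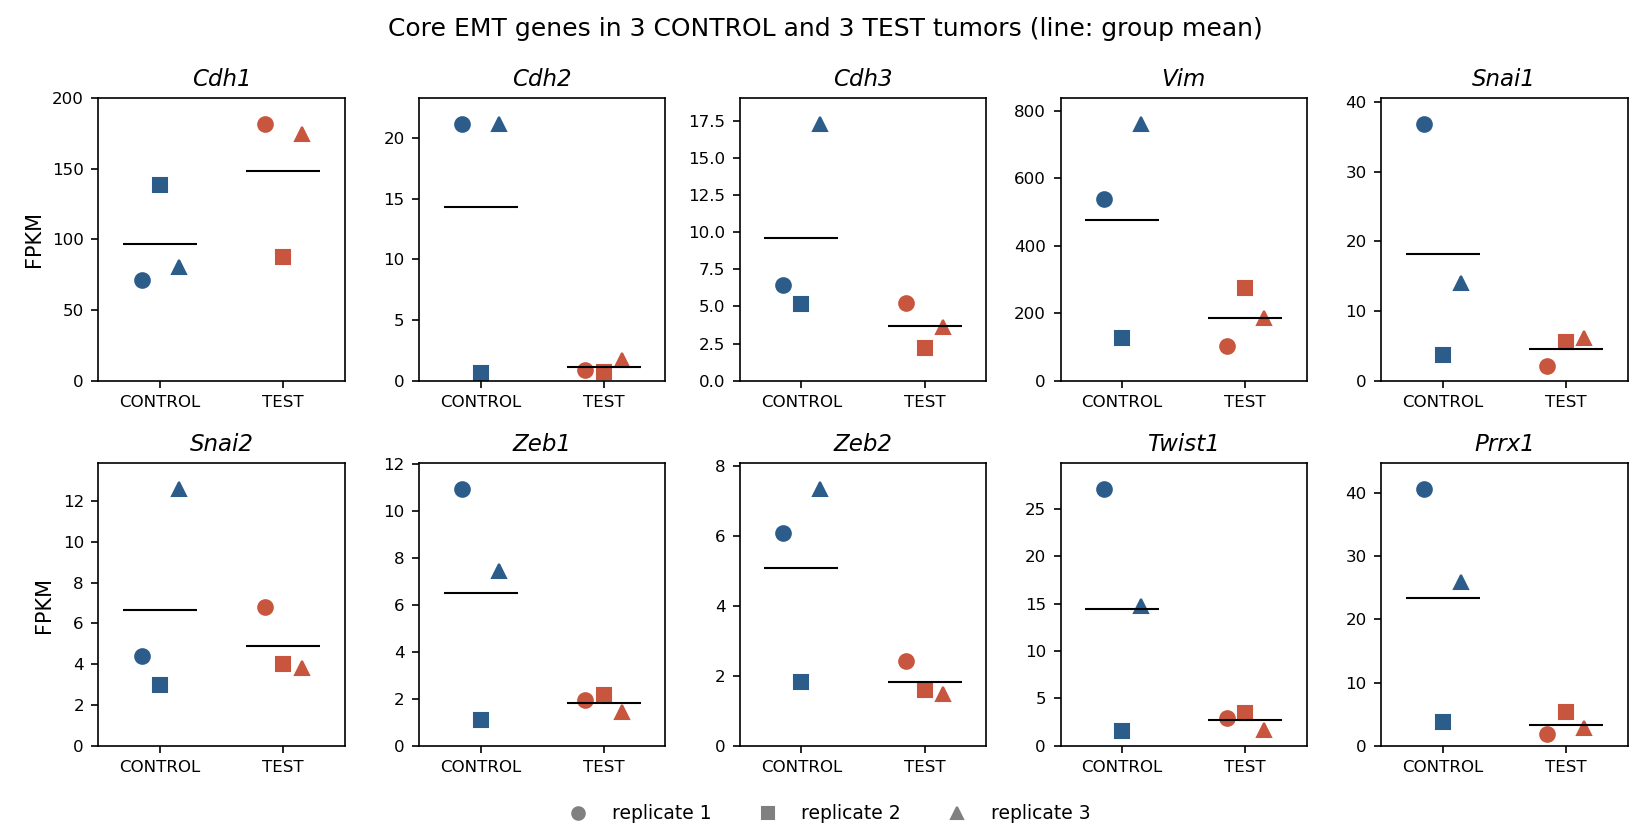
FPKM of each core EMT gene (y axis, linear from 0) in the 3 CONTROL and 3 TEST tumors (x axis), with 1 symbol shape per replicate number and a line at the group mean. Control tumors 1 and 3 lie above all test tumors in 8 of the 10 panels, while control tumor 2 lies among or below the test tumors.

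*Cdh1* (NCBI Gene 12550), the gene of E-cadherin, the adhesion molecule of epithelial junctions, is located at 106603350 to 106670247 of chromosome 8 (GRCm38, as for all positions given). Its level was 71.07, 138.75 and 80.64 FPKM in the control and 181.95, 87.74 and 174.97 FPKM in the test tumors, where FPKM is a fragment count corrected for gene length and sequencing depth. Test tumors 1 and 3 were the highest of the 6 tumors, and test tumor 2 lay between the control tumors. The transcript was abundant in every tumor, between the 92.7th and 97.6th percentile of the tested genes by FPKM. The log2 fold change was 0.62 (standard error, SE, 0.38, 95% interval -0.26 to 1.5, edgeR adjusted p = 0.700), so that neither no change nor a rise of more than 1 on the log2 scale lay outside the interval.
*Cdh2* (NCBI Gene 12558, chromosome 18, 16588877 to 16809246) encodes N-cadherin, the cadherin of neural and mesenchymal cells. Its level was 21.17, 0.62 and 21.16 FPKM in the control and 0.89, 0.72 and 1.71 FPKM in the test tumors. The tumors thus fell into 2 with a clear transcript and 4 with little of it, and control tumor 2 was the lowest of all. Control tumor 3 exceeded the highest test tumor 11.9-fold in CPM, the widest such gap among the 10 genes. Within a tumor the transcript stood at the 73.1 and 71.0 percentile of tested genes in control tumors 1 and 3 and between the 7.3 and 17.0 percentile in the other 4 tumors. The group means were 1.11 ± 0.529 FPKM in test and 14.3 ± 11.9 FPKM in control tumors (SD, n = 3 each), and the log2 fold change was -3.71 (SE 1.11, edgeR adjusted p = 0.454).
*Cdh3* (NCBI Gene 12560, chromosome 8, 106510852 to 106556911) encodes P-cadherin, found in the basal layer of the mammary epithelium, and ends 46.4 kb before *Cdh1* begins. Its level was 6.43, 5.18 and 17.3 FPKM in the control and 5.22, 2.2 and 3.59 FPKM in the test tumors. In 8 of the 9 pairs of 1 test and 1 control tumor the test tumor was lower, the exception being test tumor 1 against control tumor 2, which were nearly equal. The log2 fold change was -1.39 (SE 0.51, edgeR adjusted p = 0.518), and it was -0.71 without control tumor 3. These neighboring cadherin genes therefore had estimates of opposite sign, of which neither passed the test.

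*Vim* (NCBI Gene 22352, chromosome 2, 13574311 to 13582826) encodes vimentin, the intermediate filament protein of mesenchymal cells, which is also made by fibroblasts, endothelium and leukocytes. Its level was 537.68, 127.06 and 760.93 FPKM in the control and 101.65, 273.72 and 184.46 FPKM in the test tumors. It was above the 95th percentile of tested genes in all 6 tumors, from 95.2 to 99.4, so the tumors differed in the amount of a transcript that none lacked. Control tumor 1, the lower of the high control tumors, exceeded test tumor 2, the highest test tumor, 2.00-fold in CPM, and control tumor 2 lay inside the range of the test tumors. The means were 187 ± 86.1 FPKM in test and 475 ± 322 FPKM in control tumors (SD, n = 3 each), and the log2 fold change was -1.33 (SE 0.67, edgeR adjusted p = 0.660), and -0.88 without control tumor 3.

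Among the transcription factors, the SNAIL genes had unlike profiles. *Snai1* (NCBI Gene 20613, chromosome 2, 167538195 to 167542814), a repressor of the E-cadherin gene and the gene whose promoter window above holds the E-box, was at 36.88, 3.63 and 13.99 FPKM in the control and at 2.08, 5.5 and 6.06 FPKM in the test tumors. Control tumor 1 was the highest tumor by far, and control tumor 2 lay within the test range. The log2 fold change was -2.02 (SE 0.83, edgeR adjusted p = 0.562), and it was -0.89 without control tumor 1. *Snai2* (NCBI Gene 20583, chromosome 16, 14705852 to 14709395), which encodes SLUG, a factor also made by basal and stem-like mammary epithelial cells, was at 4.39, 2.99 and 12.59 FPKM in the control and at 6.79, 4.01 and 3.84 FPKM in the test tumors. Only control tumor 3 stood above the test tumors. The log2 fold change of *Snai2* was -0.44 (SE 0.56, edgeR adjusted p = 0.841), and without control tumor 3 it was 0.35. The difference between the SNAIL genes in their response was not tested.

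The ZEB factors, zinc finger repressors of E-cadherin that are held down in epithelium by the miR-200 family, had like levels. *Zeb1* (NCBI Gene 21417, chromosome 18, 5591327 to 5775468) was at 10.95, 1.12 and 7.46 FPKM in the control and at 1.95, 2.15 and 1.43 FPKM in the test tumors. *Zeb2* (NCBI Gene 24136, chromosome 2, 44983512 to 45117442) was at 6.09, 1.82 and 7.34 FPKM in the control and at 2.42, 1.61 and 1.47 FPKM in the test tumors. For both genes the test tumors were close to each other and control tumors 1 and 3 were above all of them, by at least 3.19-fold for *Zeb1* and 2.79-fold for *Zeb2* in CPM. Control tumor 2 had the lowest *Zeb1* of all tumors. The log2 fold changes were -1.84 for *Zeb1* (SE 0.73, edgeR adjusted p = 0.551) and -1.48 for *Zeb2* (SE 0.51, edgeR adjusted p = 0.491). That of *Zeb1* was -1.16 without control tumor 1.

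*Twist1* (NCBI Gene 22160, chromosome 12, 33957671 to 33959831), a helix-loop-helix factor of embryonic mesoderm and neural crest, was at 27.09, 1.56 and 14.8 FPKM in the control and at 2.95, 3.43 and 1.72 FPKM in the test tumors. *Prrx1* (NCBI Gene 18933, chromosome 1, 163245119 to 163315145), a homeobox factor of limb and craniofacial mesenchyme that is also made by fibroblasts, was at 40.6, 3.7 and 25.84 FPKM in the control and at 1.91, 5.36 and 2.81 FPKM in the test tumors. Control tumor 3, the lower of the high control tumors, exceeded the highest test tumor 3.97-fold for *Twist1* and 4.45-fold for *Prrx1* in CPM. Control tumor 2 was the lowest tumor for *Twist1* and within the test range for *Prrx1*. The log2 fold changes were -2.45 for *Twist1* (SE 0.90, edgeR adjusted p = 0.516) and -2.80 for *Prrx1* (SE 0.84, edgeR adjusted p = 0.454), after *Cdh2* the largest in size among the 10 genes. That of *Twist1* was -1.54 without control tumor 1.
The expected counts of *Snai2*, *Zeb1* and *Prrx1* were not whole numbers in any tumor, to the 2 decimals deposited, which means that some of their reads were shared out between genes by estimate, while those of the other 7 genes were whole in all 6 tumors.
An exact permutation test over the 20 splits of the 6 tumors, two-sided on the mean of log2(CPM + 0.5), gave p = 0.2 for *Cdh1*, *Cdh3*, *Zeb2* and *Prrx1*, p = 0.3 for *Vim* and *Snai1*, p = 0.4 for *Cdh2*, *Zeb1* and *Twist1* and p = 0.8 for *Snai2*, where 0.1 is the smallest p that 3 tumors against 3 allow.

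The call for these genes depended on control tumor 2 and on the test. Without that tumor 5 of the 10 genes passed an adjusted p of 0.05 in edgeR, all lower in test tumors, where 1.20% of 14166 tested genes were called in that direction and 1.28% in either. They were *Cdh2* with a log2 fold change of -4.27 (adjusted p = 0.0140), *Zeb1* with -2.35 (adjusted p = 0.0354), *Twist1* with -2.99 (adjusted p = 0.0419), *Prrx1* with -3.31 (adjusted p = 0.0428) and *Zeb2* with -1.89 (adjusted p = 0.0435). Not called without that tumor were *Cdh1* with a log2 fold change of 0.94, *Cdh3* with -1.69, *Vim* with -1.78, *Snai1* with -2.51 and *Snai2* with -0.79. Control tumor 2 was singled out by its likeness to the test tumors in these same data, and leaving it out favors low p. Each adjusted p without it, here and below, is therefore a description and not a valid test of the groups. Without control tumor 1 or without control tumor 3 the count of called genes stayed at 0. The number with an unadjusted p under 0.05, 7 with all tumors, was 9 without control tumor 2, 3 without control tumor 1, 4 without control tumor 3, 4 without test tumor 1, 2 without test tumor 2 and 2 without test tumor 3. With all 6 tumors, DESeq2 called *Cdh2* (adjusted p = 0.00518) and *Prrx1* (adjusted p = 0.0131), both lower in test tumors, where it called 1.60% of all tested genes in that direction and 2.28% in either.

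**Figure D2:**
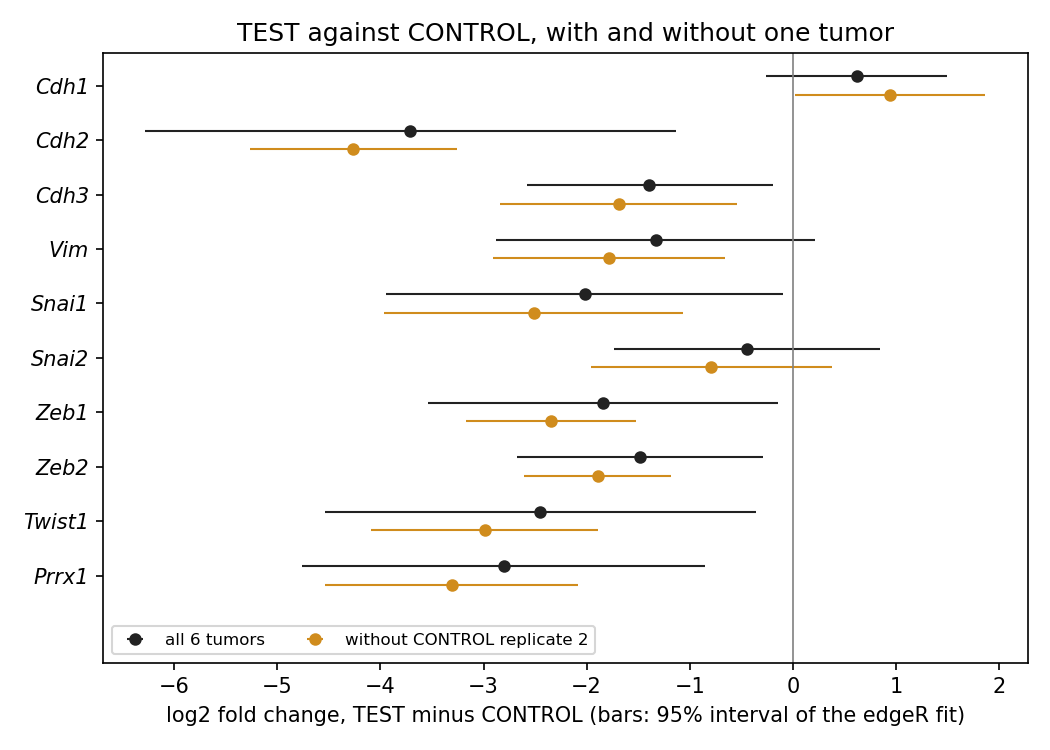
Log2 fold change, TEST minus CONTROL, of each core EMT gene (x axis) with the 95% interval of the edgeR fit, with all 6 tumors (black) and without control tumor 2 (orange). Leaving out that tumor moved *Cdh2* from -3.71 to -4.27 and *Cdh1* from 0.62 to 0.94 and narrowed the interval of the genes called without it.

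The balance of the genes was followed within each tumor as ratios of FPKM, to which 0.1 was added on the log2 scale. *Cdh1* exceeded *Cdh2* 3.36-fold, 224-fold and 3.81-fold in the control and 204-fold, 122-fold and 102-fold in the test tumors. By this ratio of E- to N-cadherin, control tumor 2 stood highest of the 6 tumors and the other control tumors lowest. The ratio of *Cdh1* to *Vim* was 0.132, 1.09 and 0.106 in the control and 1.79, 0.321 and 0.949 in the test tumors. *Cdh1* was thus the more abundant transcript per length in control tumor 2 and test tumor 1, and *Vim* in the other 4 tumors. Without control tumor 2 the log2 difference between the groups went from 3.20 to 5.12 for *Cdh1* to *Cdh2* and from 1.72 to 2.78 for *Cdh1* to *Vim*, and without control tumor 3 the latter was 1.1.
The ratio of *Cdh1* to *Cdh3* was the only one of the 5 ratios whose groups did not overlap. By CPM, 12.0% of all tested genes were without overlap in either direction, and no such share was taken over ratios. The ratio of *Cdh1* to *Cdh3* was 11.1, 26.8 and 4.66 in the control and 34.9, 39.9 and 48.7 in the test tumors. On the log2 scale its mean was 5.31 ± 0.24 in test and 3.46 ± 1.25 in control tumors (SD, n = 3 each), a difference of 1.85 that was not tested. Control tumor 2 was here the nearest control tumor to the test tumors, but below them. The difference was 1.23 without control tumor 3 and 2.48 without control tumor 2.
Within families, the ratio of *Snai2* to *Snai1* ran from 0.119 to 0.9 in control tumors and from 0.634 to 3.26 in test tumors. The extremes were control tumor 1, with the most *Snai1*, and test tumor 1, with the least. The log2 difference of 1.34 was 0.40 without control tumor 1 and 0.61 without test tumor 1. The ratio of *Zeb2* to *Zeb1* ran from 0.556 to 1.62 in control and from 0.749 to 1.24 in test tumors, a mean difference of 0.05 on the log2 scale that was smaller than the SD in either group (0.75 and 0.35).

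**Figure D3:**
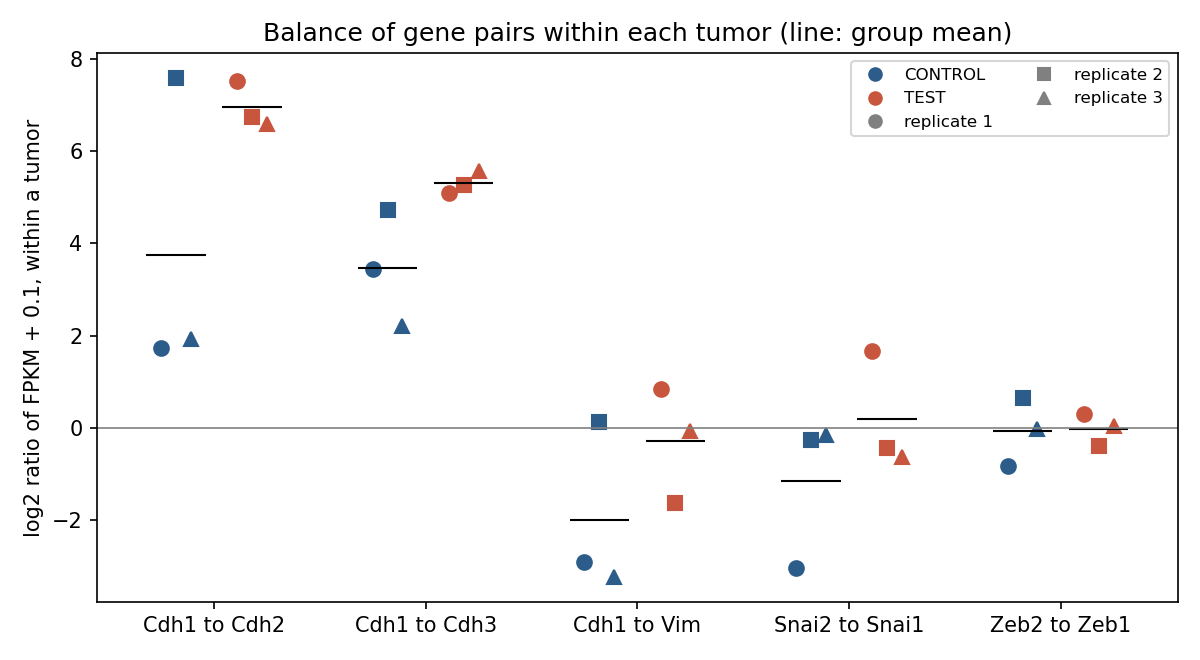
Log2 ratio of FPKM + 0.1 between pairs of core EMT genes within each tumor (y axis), by pair (x axis), with CONTROL in blue, TEST in red, 1 symbol shape per replicate number and a line at the group mean. Only for *Cdh1* to *Cdh3* do all test tumors lie above all control tumors, and control tumor 2 has the highest ratio of *Cdh1* to *Cdh2*.

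Partners and other members of the program were described from lists by their counts and medians. Without control tumor 2, where the median over all tested genes was 0.041, the medians were -2.12 for the core EMT genes, -0.11 for the catenins, -0.35 for the other cadherins, -0.10 for the other EMT transcription factors, 0.95 for the epithelial regulators, 1.33 for the intermediate filament genes and -1.20 for the mesenchymal products. Of the catenins, which tie cadherins to the cytoskeleton, 6 were tested, with 2 higher, 4 lower and a median log2 fold change of -0.15. The main junctional catenins differed little, with log2 fold changes of -0.02 for *Ctnna1*, -0.27 for *Ctnnb1*, 0.08 for *Ctnnd1* and 0.41 for *Jup* (adjusted p from 0.785 to 0.987 in edgeR's test). *Ctnnal1*, an alpha-catenin relative, was at 54.6, 30.3 and 48.4 CPM in the control and at 12.8, 19.7 and 8.17 CPM in the test tumors, so that the groups did not overlap. Its log2 fold change was -1.71 (edgeR adjusted p = 0.394), and DESeq2 called it with an adjusted p of 0.0102. *Ctnnd2*, known from neurons, followed *Cdh2* with 24.5, 3.24 and 28.6 CPM in the control and 6.0, 3.78 and 3.71 CPM in the test tumors, and its log2 fold change was -2.06 (edgeR adjusted p = 0.505). Without control tumor 2 it was -2.56 (edgeR adjusted p = 0.0349).
Of 15 other cadherins, 4 were tested, all 4 lower with a median of -0.18, and the highest, the endothelial *Cdh5*, had a log2 fold change of -0.22. *Cdh20*, named after its values were seen, was under the filter with 4.74, 0.108 and 3.73 CPM in the control and at most 0.122 CPM in each test tumor. Without control tumor 2 it passed the filter and was called, with an edgeR adjusted p of 0.0455.
Of 13 other EMT transcription factors, 9 were tested, with 2 higher and 7 lower and a median of -0.41. The paralogs of the core factors were low in most tumors: *Twist2* ran from 0.463 to 1.5 CPM over the 6 tumors, *Prrx2* from 0.106 to 11.6 CPM, with its highest level in control tumor 1, and *Snai3* from 0 to 1.19 CPM.

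Of 11 regulators that hold cells in the epithelial state, all tested, 10 were higher in test tumors and 1 lower, with a median log2 fold change of 0.35. The 10 include *Grhl2*, whose group means were level, and 48.5% of all tested genes were lower. Of the 11 genes, 0 reached an unadjusted p under 0.05 in edgeR's test (8.41% of all tested genes did). *Grhl2*, an activator of the E-cadherin gene, had a log2 fold change of 0.00, and *Esrp1*, a splicing factor of epithelial isoforms, one of 0.45. Apart from *Ovol2*, those of the other 8 genes ran from -0.01 for *Grhl1* to 0.91 for *Klf4*. *Esrp1* was at 94.6, 276 and 137 CPM in the control and at 263, 161 and 270 CPM in the test tumors, with control tumor 2 the highest of all. *Ovol2*, a repressor of *Zeb1*, was at 1.62, 2.81 and 1.49 CPM in the control and at 3.81, 4.39 and 3.71 CPM in the test tumors (log2 fold change 1.00, edgeR adjusted p = 0.643). It was the only gene of this list whose groups did not overlap, at a low level, against 12.0% of all tested genes in either direction.
Among the keratins of simple epithelium none passed the test, and 3 were higher in every test tumor than in every control tumor. In either direction, 12.0% of all tested genes were without overlap. *Krt8* was at 455, 806 and 373 CPM in the control and at 1130, 1230 and 1440 CPM in the test tumors, for a log2 fold change of 1.22. *Krt18*, its partner, had a log2 fold change of 1.01 and *Krt19* one of 1.82 (adjusted p = 0.454, 0.569 and 0.394 in edgeR's test for *Krt8*, *Krt18* and *Krt19*), and DESeq2 called *Krt19* with an adjusted p of 0.00401. The groups did not overlap for these 3 keratins and did overlap for *Vim* and for *Krt7*, which was at 117, 248 and 44.0 CPM in the control and at 173, 261 and 343 CPM in the test tumors. The difference between them and *Vim* was not tested. Of the 9 intermediate filament genes tested beside *Vim*, 7 were higher and 2 lower, with a median of 1.01, and *Des*, of muscle, had the largest log2 fold change of 2.28.
Of 15 mesenchymal products that EMT is known to raise, 12 were lower in test tumors and 3 higher, with a median of -0.86, and 8 of the 15 had control tumors 1 and 3 above every test tumor with control tumor 2 not. That arrangement was found for 13.0% of all tested genes. *Fn1*, the gene of fibronectin, was at 1920, 354 and 594 CPM in the control and at 112, 220 and 351 CPM in the test tumors. Test tumor 3 nearly met control tumor 2, and the log2 fold change was -2.07 (edgeR adjusted p = 0.483). *Wnt5a*, a secreted ligand, was at 76.5, 78.1 and 80.4 CPM in the control and at 12.5, 24.3 and 52.6 CPM in the test tumors (log2 fold change -1.39, edgeR adjusted p = 0.491). For *Wnt5a* control tumor 2 was level with its own group, which was not so for the core EMT genes. *Lox*, a collagen crosslinking enzyme, was the only gene of this list higher in every test tumor than in every control tumor, by a narrow margin and with a log2 fold change of 0.60. Over all tested genes the groups did not overlap, in either direction, for 12.0%.

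Markers of the cell types that a breast tumor can hold were read in the same tumors, and their part in the values of the core EMT genes was not tested. The 7 luminal epithelial markers, among them *Krt8*, *Krt18*, *Krt19* and *Elf5* of the lists above, were all higher in test tumors on average. For 4 of the 7 every test tumor was above every control tumor, and for the others the groups overlapped. Of all tested genes, 12.0% were without overlap in either direction. The sums of the 7 were 5190 to 5610 CPM in test and 1800 to 4040 CPM in control tumors, where control tumor 2 had the 4040 CPM. *Cldn3*, a tight junction gene, was also without overlap, at 137, 422 and 230 CPM in the control and at 525, 529 and 482 CPM in the test tumors. Of the 9 fibroblast markers 6 were higher and 3 lower, with sums of 1190 to 5130 CPM in test and 1050 to 3040 CPM in control tumors. Control tumor 1, the tumor with the most *Snai1*, *Twist1* and *Prrx1*, had the lowest fibroblast sum at 1050 CPM, with *Col1a1* at 108 CPM against 275 to 2020 CPM in test tumors. Collagen genes make up most of that sum, and in the same tumor *Pdgfra* (39.2 CPM) and *Fap* (16.5 CPM) were the highest of the 6 tumors and *Dcn* (154 CPM) and *Lum* (35.1 CPM) the highest of the control tumors. The arrangement of the core EMT genes, with control tumors 1 and 3 above every test tumor and control tumor 2 not, was shared by 2 of the 9 fibroblast markers, *Fap* and *Pdgfrb*, named after their values were seen. Of all tested genes 13.0% had it. *Fap*, a protease of activated fibroblasts, was at 16.5, 2.05 and 15.6 CPM in the control and at 3.46, 8.06 and 3.29 CPM in the test tumors.
Endothelial marker sums were 119 to 158 CPM in test and 105 to 145 CPM in control tumors, with 5 of 7 markers higher. Macrophage marker sums were 431 to 675 CPM in test and 459 to 806 CPM in control tumors, with 6 of 7 markers lower and the highest sum in control tumor 3. In neither list did the sums of control tumors 1 and 3 both exceed those of every test tumor, but single markers did so while control tumor 2 did not, 1 of 7 in the endothelial list (*Kdr*) and 3 of 7 in the macrophage list (*Adgre1*, *Cd68* and *Itgam*, named after their values were seen). Over all tested genes the share was 13.0%. *Cd14* went the other way without overlap, at 57.6, 141 and 72.4 CPM in the control and at 196, 183 and 185 CPM in the test tumors. *Cd68* was at 102, 23.5 and 57.1 CPM in the control and at 19.3, 37.4 and 29.6 CPM in the test tumors. T cell RNA was scarce in all tumors: of 6 T cell markers 2 were tested, their listed genes summed to 3.46 to 5.37 CPM in test and 3.89 to 5.97 CPM in control tumors, and *Cd3e* was at most 0.746 CPM.
Of the 7 basal and myoepithelial markers 1, *Krt14*, was higher and 6 were lower. The arrangement of the core EMT genes was shared by 2, *Trp63* and *Oxtr*, against 13.0% of all tested genes. *Trp63*, a factor of basal epithelium, was at 371, 16.0 and 58.5 CPM in the control and at 23.4, 6.47 and 20.4 CPM in the test tumors (log2 fold change -3.15, edgeR adjusted p = 0.491), and DESeq2 called it with an adjusted p of 0.0268. Control tumor 1, highest for *Trp63*, was the lowest of all tumors for *Krt5* (8.56 CPM), *Krt14* (15.6 CPM) and *Myh11* (7.41 CPM). For *Acta2*, *Cnn1* and *Oxtr* it was neither highest nor lowest. The sums of the 7 basal and myoepithelial markers were 480 to 1220 CPM in test tumors and 756, 440 and 3080 CPM in control tumors 1, 2 and 3. Control tumor 3, with the highest sum and 1700 CPM of *Acta2*, was also the tumor with the most *Cdh3* and *Snai2*, both of which basal mammary epithelium makes. Skeletal muscle marker sums were 79.3 to 874 CPM in test tumors and 6.94, 161 and 4.47 CPM in control tumors 1, 2 and 3, and adipocyte marker sums were 15.7 to 382 CPM in test and 15.9 to 24.8 CPM in control tumors. Control tumors 1 and 3, high for the EMT genes, thus had the least muscle RNA.

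**Figure D4:**
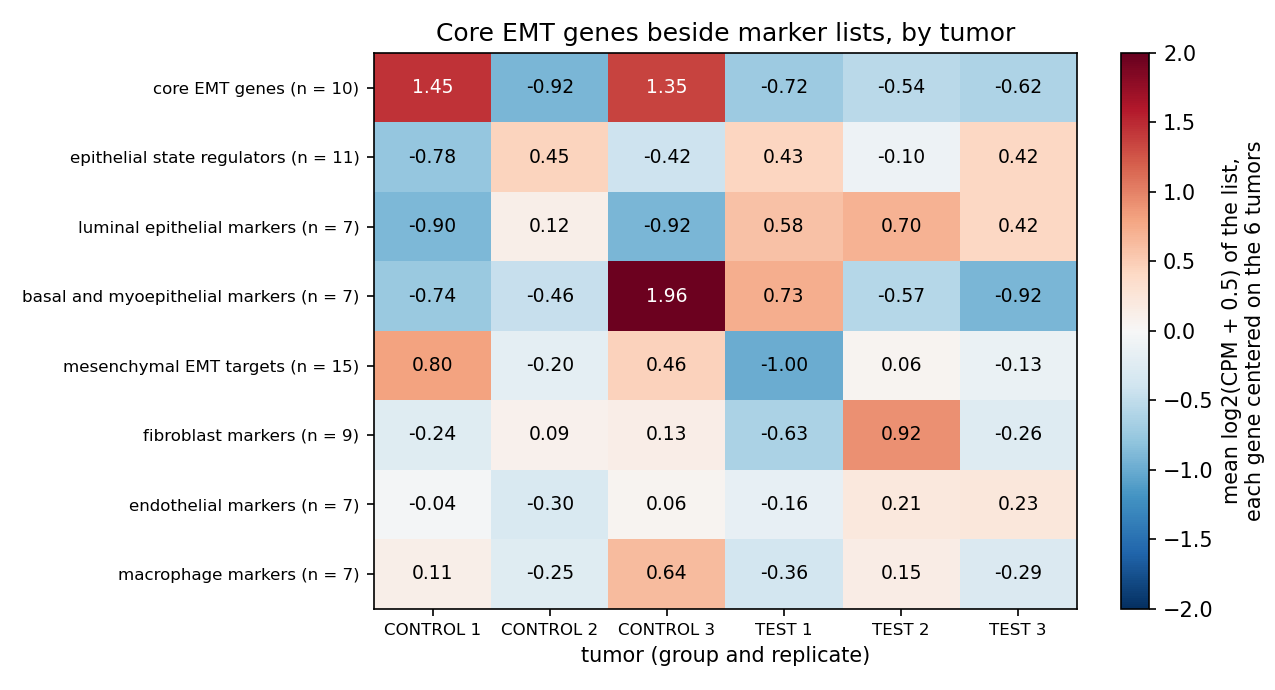
Mean log2(CPM + 0.5) of the tested genes of each list (rows, number of genes in brackets) in each tumor (columns), after each gene was centered on its mean over the 6 tumors. The core EMT genes stand at 1.45 and 1.35 in control tumors 1 and 3 and between -0.92 and -0.54 in the other 4 tumors, an arrangement that the mesenchymal EMT targets share. The fibroblast, endothelial and macrophage rows do not have it, the last by 0.11 in control tumor 1 against 0.15 in test tumor 2.

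The genes whose profile over the 6 tumors was most like that of *Cdh1*, by the root mean square difference of centered log2(CPM + 0.5) among 13706 genes, were *Znrf2* (0.109), *Galnt3* (0.124) and *Pip5k1b* (0.135). *Galnt3* was at 86.4, 147 and 110 CPM in the control and at 194, 112 and 198 CPM in the test tumors, the same arrangement as for *Cdh1* with test tumors 1 and 3 on top. For *Vim* they were *Shc4* (0.147), *Exoc3l4* (0.239) and *Hexa* (0.266). *Shc4*, a signaling adaptor, was at 30.6, 8.0 and 45.6 CPM in the control and at 6.69, 20.0 and 12.1 CPM in the test tumors. No other core EMT gene was among the 3 nearest genes of either.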

How the data were processed

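RNA sequencing of 6 breast tumors, 3 TEST and 3 CONTROL, was used. Libraries were made at Beijing Genomics Institute, and the authors aligned reads to mm10 with Bowtie. The submitters' processing notes also name BWA and RSEM, and the annotation release is not given in the sources used here. Values deposited by the authors are the expected count per gene, without normalization, the FPKM, which they scaled to gene length and depth, and the gene length in bases. Genes not listed in a tumor were set to 0. Genes were identified by NCBI Gene id, of which 18400 of 18460 matched a GRCm38 annotation by id, 13 through a transcript and 47 not at all.

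After rounding, expected counts were tested with edgeR 4.0.16 under R 4.3.3 (filterByExpr, TMM, quasi-likelihood test without covariates, Benjamini-Hochberg adjustment over 13706 genes, called at 0.05). The shared biological coefficient of variation was 0.434, and the lowest adjusted p of any gene was 0.394. Standard errors are the log2 fold change divided by the square root of F. Depth, 8373390 to 9449565 counts per tumor, sets a floor of 3 counts that covers counting error only. Alternatives were DESeq2 1.42.0, RLE or library size scaling, other filters, limma 3.58.1 on log2(FPKM + 1) or log2(FPKM + 0.1), the replicate number as a block, and leaving out each tumor. The tests were tried on simulated data.

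The 10 genes and the lists were chosen with earlier results of these data known. The rule let a list name its highest gene, its largest rise and fall, genes without overlap between groups, any catenin or epithelial regulator, the highest and the lowest cell type markers, and the 3 genes nearest in profile to *Cdh1* and *Vim*. *Twist2*, *Prrx2*, *Snai3*, *Krt7*, *Trp63*, *Oxtr*, *Krt14*, *Myh11*, *Cnn1*, *Pdgfra*, *Dcn*, *Lum*, *Cdh20*, *Fap*, *Pdgfrb*, *Kdr*, *Adgre1*, *Cd68*, *Itgam*, *Cd3e* and *Acta2* were named after their values were seen or as paralogs or markers. Promoter windows were taken from RefSeq on GRCm38.p6, and RNA of other tumors, T cells, chromatin and protein data of the study were not analyzed here. A gene of the transcription factor list is not reported here.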

Additional observations from a re-analysis of the deposited data

How the results depend on the processing

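With 3 tumors a group and a biological coefficient of variation of 0.434, several calls depended on control tumor 2, and the effect of depth on the calls was not tested. The number of core EMT genes called, 0 with all tumors, was 2 with DESeq2 and ran from 0 to 5 when each tumor was left out in turn, the 5 being without control tumor 2. The number with an unadjusted p under 0.05, 7 in edgeR's test, was 2 with limma-trend on log2(FPKM + 1) and 2 on log2(FPKM + 0.1), and ran from 2 to 9 when each tumor was left out. No pairing by replicate number was seen: deviations of same-numbered tumors correlated at -0.02, 0.12 and -0.14, and those of other pairs from -0.16 to 0.22. With 3 tumors a group this check cannot exclude a pairing. With the replicate block 3 core EMT genes had an unadjusted p under 0.05 and 0 were called. In the other lists 0 genes were called with all tumors, 5 with DESeq2 and 0 to 3 when each tumor was left out, the 3 being without control tumor 2. Of all tested genes, DESeq2 called 2.28%, and edgeR without control tumor 2 called 1.28%. *Cdh2* (-3.71) and *Prrx1* (-2.80) passed the threshold with DESeq2, and *Cdh2* (-4.27), *Zeb1* (-2.35), *Zeb2* (-1.89), *Twist1* (-2.99) and *Prrx1* (-3.31) without control tumor 2. *Snai2*, at -0.44, ran from -0.79 without control tumor 2 to 0.35 without control tumor 3, and the log2 ratio of *Zeb2* to *Zeb1*, 0.05 with all tumors, ran from -0.34 without control tumor 1 to 0.41 without control tumor 2 and was -0.11 without test tumor 1. The cause of these shifts was not tested. Of 140 single-gene values under the alternatives, 132 kept their direction and their side of the threshold. Because edgeR with all tumors and most alternatives called 0 of all genes, the side of the threshold could hardly change. The 140 values also reuse the same tumors, so the tally does not measure robustness. The median log2 fold change of all genes was 0.018 with TMM, 0.019 with RLE and 0.01 with library size alone, and scaling turned no direction among the 10 genes.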
